A study of Macaca fascicularis with 44 samples.

Results

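The mitochondrial respiratory chain and its ATP synthase are built largely from subunits encoded in the nucleus, and 62 such genes were described here across the cell classes and days of cultured cynomolgus monkey embryos (Macaca fascicularis). They are every gene of the deposited count table, which holds 21834 genes, whose name starts with NDUFA, NDUFB, NDUFC, NDUFS, NDUFV, UQCR, COX4, COX5, COX6, COX7, COX8 or ATP5, or that is SDHA, SDHB, SDHC or SDHD. The choice used names only and no measured value. The set comprised 27 subunits of complex I, 6 assembly factors of complex I whose names share its prefix (NDUFAF1, NDUFAF3, NDUFAF4, NDUFAF5, NDUFAF6 and NDUFAF7), 2 subunits of complex II (SDHB and SDHD), 3 of complex III (UQCRB, UQCRC1 and UQCRQ), 8 of complex IV, 14 of complex V, the ATP synthase inhibitor ATP5IF1 and NDUFA4L2, a relative of the complex IV component NDUFA4. Of 94 protein-coding symbols of the T2T-MFA8v1.1 gene table that fit the names, 60 had a row in the count table. Genes without a row, such as SDHA and SDHC, were not analysed here. Shares and counts by complex therefore cover only the genes with a row, not whole complexes.

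Complexes I and II pass electrons from NADH and succinate to ubiquinone, complex III passes them on to cytochrome c, and complex IV reduces oxygen. Complexes I, III and IV pump protons across the inner mitochondrial membrane, and complex V uses the gradient to make ATP. Complex II is encoded wholly in the nucleus, while the other complexes also hold core subunits encoded in mitochondrial DNA. Several complex IV subunits exist as alternative isoforms that tissues use to different degrees, among them COX4I2, which is known from lung and from cells at low oxygen, COX7A1 and COX6A2 from heart and skeletal muscle, and COX6B2 and COX7B2 from testis.

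RNA of 3682 single cells was counted in 44 libraries from 9 wild-type embryos, which were made by injecting sperm into oocytes and were grown in vitro beyond the blastocyst. E16 holds 2 embryos (E16-1 and E16-2), and E18, E20, E21, E22, E23, E24 and E25 hold 1 each, so that a day after E16 cannot be told apart from its embryo. No group was treated, and the cell classes were named by the authors. Per the labels, extraembryonic tissue was cut away before the embryos were dissociated, yet most cells carry the names of extraembryonic classes: cytotrophoblast (CTB), the proliferative trophoblast, extravillous trophoblast (EVT), the invasive trophoblast, syncytiotrophoblast (STB), the fused and hormone-secreting trophoblast, and the classes labelled EXMC and Extraembryonic Mesoderm. The 42 libraries whose labels gave a single day held 3533 cells and between 4393315 and 30568931 counts each. Over all 3682 cells, a cell had a median of 110457.5 counts and 4877.5 genes. Counts were summed per embryo and class where there were at least 10 cells. The classes fitted were CTB (8 embryos, 520 cells), EXMC (8 embryos, 1134 cells), EVT (6 embryos, 516 cells), Extraembryonic Mesoderm (6 embryos, 455 cells), STB (4 embryos, 81 cells), Mesoderm (3 embryos, 219 cells) and epiblast (EPI; 3 embryos, 50 cells). Endoderm, PS and derivative, Non-neural ectoderm (2 embryos each) and Neural ectoderm (1 embryo) were described by level only. Of the markers listed for each class, the level was highest in the class itself for 5 of 5 in PS and derivative and in Endoderm, 4 of 5 in EXMC, EVT and STB, 3 of 4 in EPI, 2 of 5 in Neural ectoderm (2 others at 0) and in Non-neural ectoderm, 1 of 6 in CTB and 1 of 5 in Extraembryonic Mesoderm. None of the 5 Mesoderm markers (FOXC1, MEOX1, PDGFRA, TBX6 and TCF15) was highest in Mesoderm, so that name is used only as the authors' label. The same holds for CTB and Extraembryonic Mesoderm. The CTB markers summed to a median of 874 CPM in CTB and 1255 CPM in STB. Those of Extraembryonic Mesoderm summed to a median of 556 CPM in that class and 893 CPM in Mesoderm.

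Embryo E20 stood apart for these genes in every class it could be compared in, and counts of called genes are therefore given with and without it. Most of the shift was downward: the counts of high genes were near those of all genes in each class. In CTB 30 of the 62 genes had their lowest level in E20 and 17 their highest, where 6.62% and 25.6% of all genes did so. All genes, here and in later counts embryo by embryo, are those with any count in the sums compared. They were not matched to the set for level. The counts were 30 and 17 of 62 in EVT (9.21% and 27% of all genes), 31 and 15 of 62 in EXMC (9.19% and 20.7%), 32 and 14 of 61 in Extraembryonic Mesoderm (7.64% and 26.4%) and 32 and 22 of 61 in STB (14% and 33.9%). Of the 61 genes compared in all 5 classes, 28 were below every other embryo in each class, where 2.98% of all genes were, among them UQCRB, UQCRQ, COX6A1, COX7B, COX8A, NDUFA1 and ATP5IF1. Another 12 were above every other embryo in each class, where 5.54% of all genes were, namely ATP5F1A, ATP5F1B, ATP5F1C, ATP5PB, NDUFA9, NDUFA10, NDUFB5, NDUFS1, NDUFS3, SDHB, SDHD and UQCRC1.

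For most genes the displacement was of like size from class to class. Of 58 genes with a count in every embryo of the 5 classes, 51 had their ratio of E20 to the mean of the other embryos on the same side of 1 in each class, and for 52 the highest of the 5 ratios was under 2 times the lowest (median 1.40 times). The widest spreads were those of COX4I2, from 0.107 in EVT to 2.76 in STB, and COX7A1, from 0.00823 in CTB to 0.189 in Extraembryonic Mesoderm. Examples of narrow spread were chosen after their values were seen. For ATP5ME, a small membrane subunit of the ATP synthase, the level in CTB was 59.7 CPM (the gene's counts scaled to the total counts of the class in that embryo) in E20 and between 427 and 1180 CPM in the other 7 embryos. Its ratio lay between 0.0803 and 0.107 in the 5 classes. The ratio was 1.86 to 2.88 for UQCRC1, a core subunit of complex III, 2.00 to 2.82 for the iron-sulfur subunit NDUFS1 and 1.67 to 2.39 for SDHD, a membrane anchor of complex II. Summed over all genes of the set and all cells, E20 had the lowest share of counts of the 9 embryos, 1.30%, and E23 the highest, 2.52%. The shift was not confined to this set. E20 was also lowest for cytosolic ribosomal proteins (6.69%, others 9.59% to 15.9%) and mitochondrially encoded subunits (5.46%, others 6.11% to 11.4%). For glycolysis genes it was highest (1.06%). Its CTB cells had a median of 239159 counts, against 105436 to 172273 in the other embryos. The cell names of E20 carry a library code that no other embryo has, as do those of E18 and E23, so that the embryo, its day and this code cannot be told apart. Because the fits carry the embryo as a term, classes were compared within embryos.

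**Figure D1:**
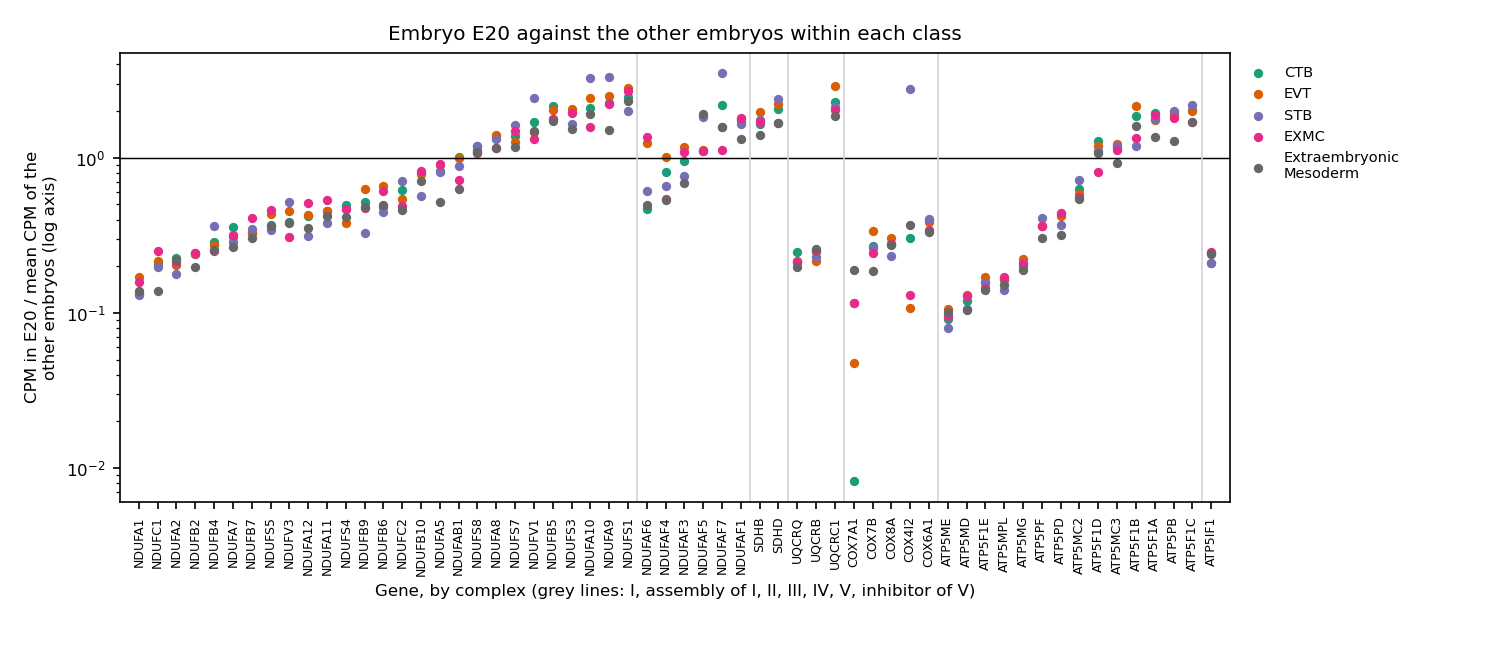
Ratio of each gene's level (CPM) in embryo E20 to the mean of the other embryos, on a log axis, with a point per gene and class and a colour per class. Only genes with a count in every embryo of that class are drawn. For most genes the points lie close together, as at 0.0803 to 0.107 for ATP5ME and 1.86 to 2.88 for UQCRC1, while those of COX4I2 run from 0.107 to 2.76.

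Most of these genes were broadly detected. A count was present in a median of 92.8% of cells over the 62 genes, and the least detected were alternative isoforms: COX4I2 in 33.8% of cells, NDUFA4L2 in 4.73%, COX6B2 in 4.51% and COX7B2 in 2.47%. The assembly factors NDUFAF5 (36.7%), NDUFAF7 (38.8%) and NDUFAF6 (41.7%) and the core subunit NDUFS1 (52.5%) came next. COX6A2 had 52 counts in 7 cells and was filtered out of the fits, which left 61 genes among 14166 tested. As a share of all counts, the 62 genes made up 2.49 ± 0.399% in CTB (mean ± SD, n = 8 embryos), 1.72 ± 0.357% in EVT (n = 6), 1.76 ± 0.465% in STB (n = 4), 1.78 ± 0.361% in EXMC (n = 8) and 1.90 ± 0.458% in Extraembryonic Mesoderm (n = 6). Mesoderm had 2.76 ± 0.174% (n = 3) and EPI 2.37 ± 0.520% (n = 3). The classes seen in few embryos had mean shares of 2.22% (PS and derivative), 2.25% (Endoderm), 2.44% (Non-neural ectoderm) and 2.46% (Neural ectoderm). Without E20 the shares were 2.61 ± 0.246% in CTB, 1.84 ± 0.237% in EVT, 1.95 ± 0.346% in STB, 1.88 ± 0.234% in EXMC and 2.08 ± 0.170% in Extraembryonic Mesoderm. These values are relative to the other RNA of the same cells, so that less of this RNA and more of other RNA cannot be told apart.

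**Figure D2:**
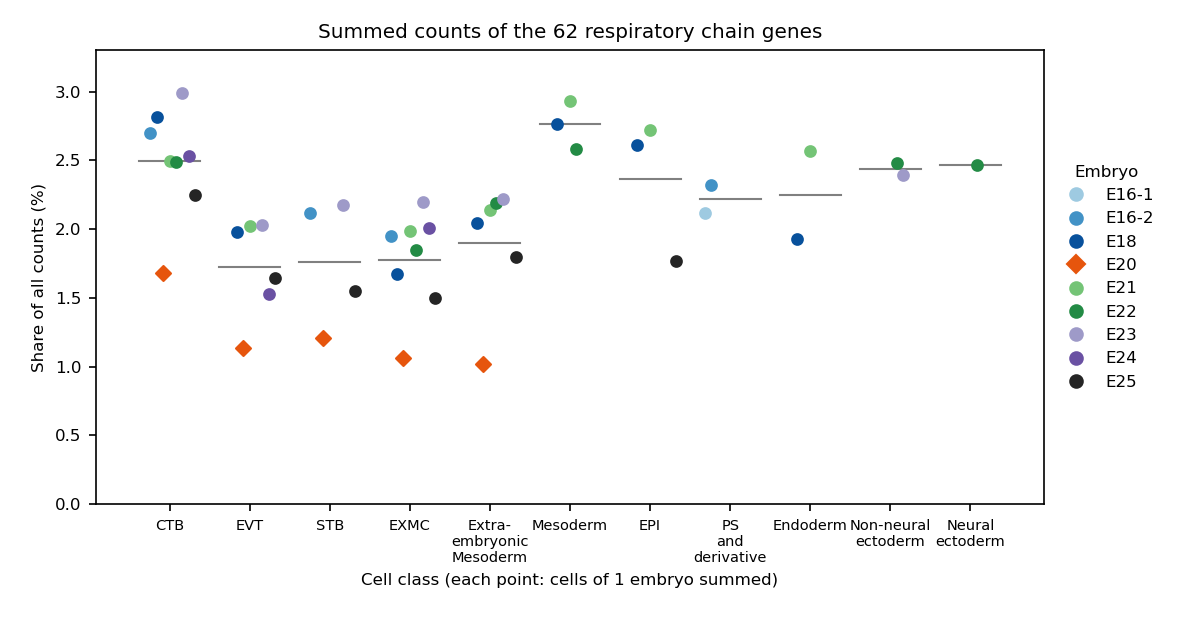
Share of all counts (percent) taken by the 62 genes in each class, with a point per embryo, E20 as orange diamonds and a grey line at the mean. CTB (mean 2.49%) and Mesoderm (2.76%) lie above EVT (1.72%), STB (1.76%) and EXMC (1.78%), and E20 is the lowest point in each of the 5 classes that hold it.

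Cytotrophoblast had higher levels of these genes than the mean of the other 6 fitted classes. Of the 61 genes tested, 33 were higher and 3 lower (edgeR quasi-likelihood test, Benjamini-Hochberg adjusted p under 0.05), against 14.2% and 13% of all genes tested. Their median log2 difference was 0.44, against -0.02 over all genes. The higher genes came from every complex: 13 of 27 in complex I, 2 of 2 in complex II, 3 of 3 in complex III, 3 of 7 in complex IV, 10 of 14 in complex V and 2 of 6 assembly factors. The 3 lower genes were isoforms of complex IV. Without E20 the counts were 32 higher and 3 lower. The classes were drawn by the authors from the same RNA, so p-values between classes describe the data and are no independent test. Without the embryo term 15 genes passed in place of 36.

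ATP5MC3, a gene for the c subunit that forms the rotor ring of the ATP synthase, showed the largest rise in CTB among genes of at least 10 CPM. Its level was 722 CPM in E16-2, 963 in E18, 955 in E20, 869 in E21, 840 in E22, 813 in E23, 739 in E24 and 773 in E25. It lay at 262 to 599 CPM in EVT and 231 to 386 CPM in EXMC, with no overlap between either class and CTB. ATP5MC3 was also called higher in STB against the mean of the other classes. The difference of CTB from the other classes was 1.08 ± 0.10 on the log2 scale (SE; edgeR adjusted p = 1.72e-09). E20 was not displaced for this gene in CTB.

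NDUFAF4, which helps to assemble complex I, was second. It was at 177 CPM in the lowest CTB embryo, 241 in the median and 362 in the highest, and the log2 difference was 0.99 ± 0.14 (adjusted p = 6.9e-06). NDUFA8, an accessory subunit on the intermembrane side of complex I, lay between 124 CPM (E25) and 262 CPM (E20) in CTB and had a log2 difference of 0.71 ± 0.11 (adjusted p = 1.69e-05). In EXMC it lay between 71.8 and 151 CPM, which overlaps the lowest CTB embryo.

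Both measured subunits of complex II rose in CTB. SDHB, the iron-sulfur subunit, was at 75.7, 124 and 190 CPM in the lowest, median and highest of 8 CTB embryos (log2 difference 0.63 ± 0.17, adjusted p = 0.0101). SDHD was at 204, 247 and 504 CPM (0.63 ± 0.10, adjusted p = 1.32e-05), where the highest value of both genes is that of E20. For complex III, UQCRQ had a log2 difference of 0.58, UQCRB of 0.55 and UQCRC1 of 0.45. Of complex IV, COX8A rose by 0.62, COX7B by 0.47 (adjusted p = 0.000231) and COX6A1, the isoform of most tissues, by 0.41 (adjusted p = 0.00131) on the log2 scale. ATP5IF1, which blocks reverse running of the ATP synthase, had a log2 difference of -0.11 (adjusted p = 0.496) and did not pass.

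Extravillous trophoblast had lower levels than cytotrophoblast of the same embryos. Of 61 genes, 36 fell and 1 rose in EVT against CTB, against 5.24% and 11.4% of all genes tested, and the median log2 difference was -0.44 (0.10 over all genes). By complex, 17 of 27 genes of complex I fell, 1 of 2 of complex II, 2 of 3 of complex III, 3 of 7 of complex IV, 11 of 14 of complex V and 2 of 6 assembly factors. All 27 tested genes of complex I and all 14 of complex V had a negative log2 difference, called or not. Without E20 the counts were 27 lower and 1 higher. Without E23, whose EVT cells had a median of 10865 counts against 172273 in its CTB, they were 33 and 1, and without E24 the total called was 22.

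The same direction was seen embryo by embryo. In all 6 embryos that hold both classes, 44 of 62 genes had a lower CPM in EVT than in CTB, where 8.86% of all genes did so. All genes were here the 18657 with any count in these sums, not matched to the set for level. Only COX4I2 was higher in all 6, where 7.98% of all genes were. The summed share of complex I was 0.671 ± 0.139% of counts in EVT and 0.962 ± 0.190% in CTB of the same embryos (SD, n = 6), and that of complex V was 0.697 ± 0.146% and 0.981 ± 0.168%. The shares of complexes II, III and IV and of the assembly factors were also lower in EVT in 6 of 6 embryos.

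**Figure D3:**
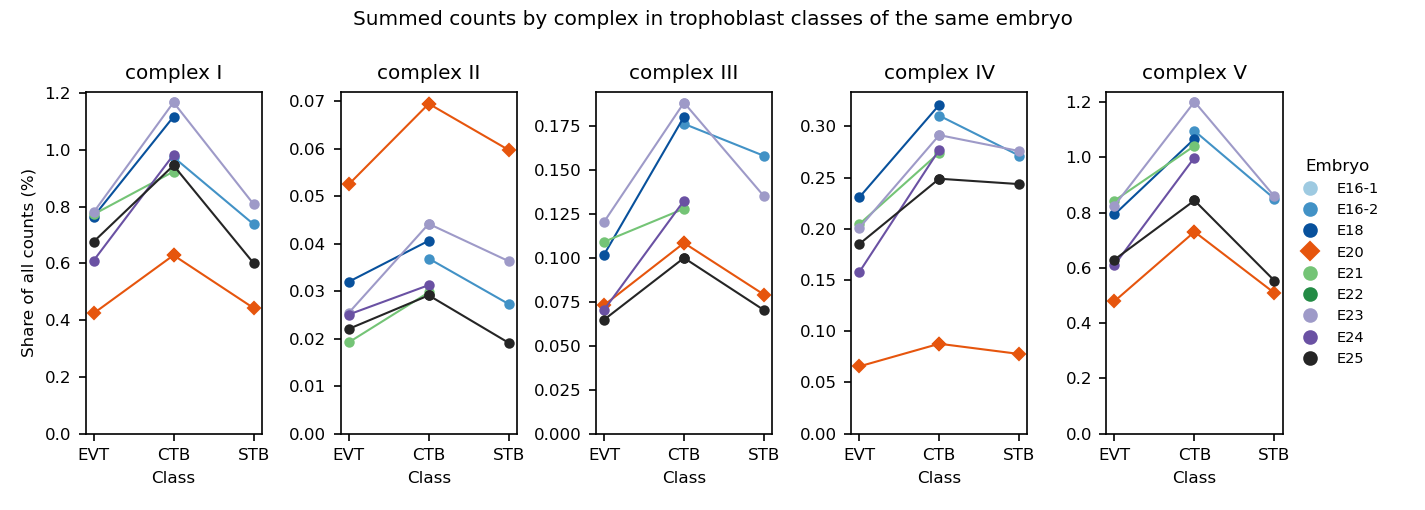
Summed share of counts (percent) of each complex in EVT, CTB and STB, with a line per embryo. Complex I falls from a mean of 0.962% in CTB to 0.671% in EVT and complex V from 0.981% to 0.697%, and the EVT value is the lower in all 6 embryos for each complex.

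ATP5MC3 and NDUFV3 were among the largest falls. ATP5MC3 was at 480 CPM in E18, 514 in E20, 599 in E21, 407 in E23, 262 in E24 and 355 in E25 in EVT, and each of these lay below every CTB embryo (log2 difference -0.91 ± 0.14, adjusted p = 2.14e-05). NDUFV3, an accessory subunit of the NADH-binding module of complex I, was at 45, 83.7 and 155 CPM in the lowest, median and highest EVT embryo and at 82.1, 204 and 276 CPM in CTB. Its ranges overlapped, the lowest value of both classes being that of E20, and the log2 difference was -0.94 ± 0.18 (adjusted p = 0.00037). NDUFAF6, another assembly factor, had -1.10 ± 0.39 (adjusted p = 0.0469), a call that was lost in 5 of the 8 fits that left out 1 embryo (log2 -1.09 to -0.97 in those).

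SDHD fell in EVT by 0.58 on the log2 scale (SE 0.13, adjusted p = 0.00228), from a median of 247 CPM in CTB to 172 CPM, while SDHB had a difference of -0.18 (adjusted p = 0.675). COX7B, a small subunit of complex IV, was at 223 to 687 CPM in EVT and 297 to 1287 CPM in CTB, the lowest value being E20 in each, and fell by 0.60 (adjusted p = 0.000689). COX6A1 fell by 0.38 (adjusted p = 0.027). That call was lost without E20 (log2 -0.39) and without E24 (-0.32). ATP5IF1 had a log2 difference of -0.31 (adjusted p = 0.107). COX4I2 rose by 1.98 ± 0.61 (adjusted p = 0.0213). Without E25 the difference of COX4I2 was 1.85 and did not pass.

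Markers of several other classes moved with the EVT class. The 5 EXMC markers were the collagen genes COL1A1, COL3A1 and COL6A1, with POSTN and DCN. Their summed level was 322 to 1705 CPM in CTB (median 756) and 1232 to 15211 CPM in EVT (median 6712). In EXMC itself it was 11530 to 40061 CPM (median 30406). The 5 Non-neural ectoderm markers summed to 374 to 861 CPM in CTB and 2466 to 4563 CPM in EVT. They summed to 1032 to 1702 CPM in Non-neural ectoderm itself, below EVT, and to a median of 5879 CPM in EXMC. The 6 Blood cell markers summed to 19.7 to 132 CPM in CTB and 320.5 to 1472 CPM in EVT. CTB and EVT overlapped for neither list. Only 2 of the 5 and 2 of the 6 were highest in their own class, so neither list was specific to its class here. The part of these markers in the difference was not tested. Against the mean of the other 6 classes, EVT had 8 of 61 genes lower and 0 higher (3.32% and 12.2% of all genes tested). At an unadjusted p under 0.05 there were 19 lower and 2 higher with edgeR, and DESeq2 called 18 lower and 0 higher after adjustment. The largest falls were NDUFS3, a core subunit of complex I, at -0.66 ± 0.14 (adjusted p = 0.000812), NDUFV3 at -0.63 (adjusted p = 0.00465) and NDUFA7 at -0.48 (adjusted p = 0.0133), and ATP5IF1 was also lower (-0.48, adjusted p = 0.00345). Without E18 neither NDUFV3 (-0.48) nor NDUFA7 (-0.36) passed and 3 genes were called in all, while without E25 13 were. Without E20 the counts stayed at 8 lower and 0 higher. In sums per library with a library block NDUFV3 did not pass either (-0.44).

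Syncytiotrophoblast was compared with the same CTB samples, so the 2 trophoblast comparisons share their reference. Of 61 genes, 18 fell and 0 rose in STB (8.73% and 10.8% of all genes tested), and the median log2 difference was -0.32 (-0.03 over all genes). At an unadjusted p under 0.05 edgeR gave 29 lower and 0 higher, and DESeq2 called 17 lower and 0 higher. The falls were in complex I (10 of 27), complex V (7 of 14) and the assembly factors (1 of 6). Of the 12 tested genes of complexes II, III and IV 0 passed with edgeR or DESeq2 (1 lower at an unadjusted p under 0.05), with log2 differences of -0.29 to -0.22 in complex II, -0.32 to -0.28 in complex III and -0.35 to 2.83 in complex IV. Without E20 12 genes fell, and without E25 10 did. In all 4 embryos with both classes, 37 of 62 genes had a lower CPM in STB, where 16.8% of all genes did, and NDUFAF5 and COX7A1 were higher in all 4, where 10.8% of all genes were. Summed EXMC markers were 2320 to 7210 CPM in STB, above every CTB embryo, and their part in the difference was not tested.

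NDUFAF4 fell most. It was at 97.9 CPM in E16-2, 50.3 in E20, 67.6 in E23 and 62.9 in E25 in STB, all below the lowest CTB embryo at 177 CPM (log2 difference -1.79 ± 0.25, adjusted p = 4.69e-06). NDUFC1, a small subunit of the membrane arm of complex I, was at 348, 42.6, 179 and 123 CPM in the same embryos. In CTB it was at 473 CPM in E16-2, 94.3 in E20, 470 in E23 and 413 in E25, so that STB was the lower in each embryo (-1.01 ± 0.20, adjusted p = 0.000419; not called in sums per library with a library block). NDUFB6, of the same arm, had -0.95 ± 0.18 (adjusted p = 0.000238). COX6A1 differed by 0.01 (adjusted p = 0.985) and COX7B by -0.35 (adjusted p = 0.0944). The summed share of complex IV was 0.217 ± 0.094% of counts in STB and 0.235 ± 0.101% in CTB of the same embryos (SD, n = 4), and STB was the lower in each of the 4.

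Against the mean of all other classes, STB had 6 genes higher and 9 lower (11.7% and 7.97% of all genes tested), and 9 and 8 when libraries were scaled by DESeq2 size factors. The higher genes included ATP5F1B, the catalytic beta subunit of the ATP synthase, at 48.8 CPM in E16-2, 60.1 in E20, 55.3 in E23 and 47.0 in E25 (log2 difference 1.01 ± 0.21, adjusted p = 0.000875). In EVT ATP5F1B was at 18.2, 20.8 and 45.2 CPM in the lowest, median and highest embryo, all below STB, while CTB overlapped STB at 29.9 to 73.7 CPM. COX8A, of complex IV, was at 966, 225, 1011 and 937 CPM in the 4 STB embryos, E20 being the low one (0.88 ± 0.15, adjusted p = 7.5e-05). NDUFAF1, an assembly factor of complex I, rose by 0.76 ± 0.23 (adjusted p = 0.0208), which did not pass without E20, E23 or E25 (0.66 to 0.80). COX6A1 rose by 0.42 (adjusted p = 0.019), which did not pass without E20, E21, E22 or E23 (0.24 to 0.44). The lower genes included NDUFAF4 (-1.10), NDUFC1 (-1.05) and ATP5MC2, a second gene for the c subunit (-0.71, adjusted p = 0.00202), so that in STB the c subunit genes ATP5MC3 (0.55, also called) and ATP5MC2 differed in opposite directions. In sums per library with a library block ATP5MC2 had -0.31, NDUFC1 -0.78 and ATP5IF1 -0.25, and none of these 3 passed. ATP5IF1 was lower (-0.50, adjusted p = 0.0157), a call lost without E20 (-0.45) or E23 (-0.46). Without E20 3 genes were higher and 5 lower.

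The mesenchymal class EXMC had 16 genes lower and 3 higher than the mean of the other classes (8.31% and 15.6% of all genes tested), with a median log2 difference of -0.22 (0.09 over all genes). Lower were 8 of 27 genes of complex I, 4 of 14 of complex V, 2 of 7 of complex IV (COX7B and COX6A1), UQCRC1 of complex III and the assembly factor NDUFAF1. Without E20 the counts were 12 lower and 3 higher, and without E21 the total called was 10. NDUFS3 had the largest fall against the mean of the other classes, at -0.97 ± 0.12 (edgeR adjusted p = 8.55e-07). It was at 38.7, 53.9 and 99.4 CPM in the lowest, median and highest EXMC embryo. In CTB, 1 of those other classes, it was at 61.4, 96 and 186 CPM, so the 2 ranges overlapped. NDUFB5, of the membrane arm of complex I, had -0.65 (adjusted p = 0.000819). COX7A1 rose by 1.41 ± 0.26 (adjusted p = 0.000231) and NDUFC2, of the membrane arm of complex I, by 0.57 ± 0.11 (adjusted p = 0.000235). The rise of ATP5MPL (0.23, adjusted p = 0.0317) and the fall of NDUFAF1 (-0.53, adjusted p = 0.0354) were near the threshold. ATP5MPL did not pass in 6 of the 8 fits that left out 1 embryo (0.20 to 0.24), nor did NDUFAF1 in 6 of 8 (-0.54 to -0.43).

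Extraembryonic Mesoderm had 17 genes lower and 3 higher (6.59% and 12.5% of all genes tested), with a median of -0.22 (0.08 over all genes), and 11 lower and 4 higher without E20. All 3 measured genes of complex III fell (-0.55 to -0.44), as did SDHD (-0.54, adjusted p = 0.00103). So did 5 of 27 genes of complex I, 6 of 14 of complex V and 2 of 7 of complex IV. NDUFS8, an iron-sulfur core subunit of complex I, fell by 0.64 (adjusted p = 0.000399). ATP5F1B fell by 0.65 (adjusted p = 0.0126), a call lost without E23 (-0.54), and NDUFS1 by 0.67 (adjusted p = 0.0457), a call lost in 6 of the 8 fits that left out 1 embryo (-0.73 to -0.49). The 3 higher genes were COX4I2, COX7A1 and NDUFS3 (0.48, adjusted p = 0.00687). NDUFS3 was not called without E18 (0.42), with at least 20 cells per sum (0.39) or in sums per library (0.30).

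Set against each other, Extraembryonic Mesoderm and EXMC differed in 1 gene higher and 2 lower (2.98% and 2.67% of all genes tested; 3 and 2 with DESeq2 size factors). NDUFS3 was at 142 CPM in E18, 209 in E20, 108 in E21, 131 in E22, 149 in E23 and 150 in E25 (149.5) in Extraembryonic Mesoderm. In EXMC of the same embryos it was at 42.4, 99.4, 57.2, 50.6, 65.0 and 38.7 CPM. The classes did not overlap, and the log2 difference was 1.24 ± 0.16 (adjusted p = 6.67e-07). NDUFC2 (-0.46, adjusted p = 0.0299) and SDHD (-0.39, adjusted p = 0.0417) were lower, and each of these calls was lost in several fits that left out 1 embryo (-0.47 to -0.36 for NDUFC2 and -0.44 to -0.31 for SDHD). Without E20, without E21 or without E24 1 gene was called, and without E22 5 were. In all 6 shared embryos, 5 of the 62 genes were higher in Extraembryonic Mesoderm (NDUFAB1, NDUFB5, NDUFS3, COX4I2 and ATP5F1E) and 0 were lower, where 4.51% and 2.71% of all genes were.

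Of the embryonic classes, Mesoderm had 6 genes higher and 0 lower (5.91% and 4.98% of all genes tested), namely NDUFS3 (0.72, adjusted p = 0.00369), NDUFB6 (0.64, adjusted p = 0.00648), NDUFB4 (0.62, adjusted p = 0.000851), NDUFS5, UQCRC1 and ATP5F1E. At an unadjusted p under 0.05 there were 14 higher and 1 lower, and DESeq2 called 7 higher and 1 lower. NDUFB4 was at 2071 CPM in E18, 2047 in E21 and 1495 in E22, against 354 to 1506 CPM in CTB. Mesoderm has 3 embryos, and leaving out E18 or E21 left 2 genes called and leaving out E22 left 3. NDUFB6 did not pass without E18 (0.54) or E21 (0.62), nor NDUFS3 without E21 (0.55). In sums per library with a library block NDUFB4 had 0.31, NDUFB6 0.33 and NDUFS3 0.71, and none of the 3 passed. Without E20, which holds no Mesoderm sum, 4 genes were higher and 0 lower.

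EPI had 10 genes higher and 1 lower (9.01% and 9.71% of all genes tested), from 3 embryos and 50 cells. The higher genes were 6 of complex I, ATP5MC2, ATP5IF1, COX6B2 and NDUFA4L2. NDUFA7, an accessory subunit of complex I, was at 776 CPM in E18, 610 in E21 (609.9) and 564 in E25, above every CTB embryo (151 to 539 CPM), with a log2 difference of 0.86 (adjusted p = 0.00051). ATP5IF1 was at 947, 824 and 522 CPM in these embryos, against 109 to 522 CPM in CTB, whose highest embryo was level with the lowest of EPI (0.80, adjusted p = 0.000171). ATP5MC3 fell by 0.65 (adjusted p = 0.00759), and did not pass without E25 (-0.32) or with at least 20 cells per sum (-0.47). Without E18 5 genes were called, without E21 6 and without E20 7.

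**Figure D4:**
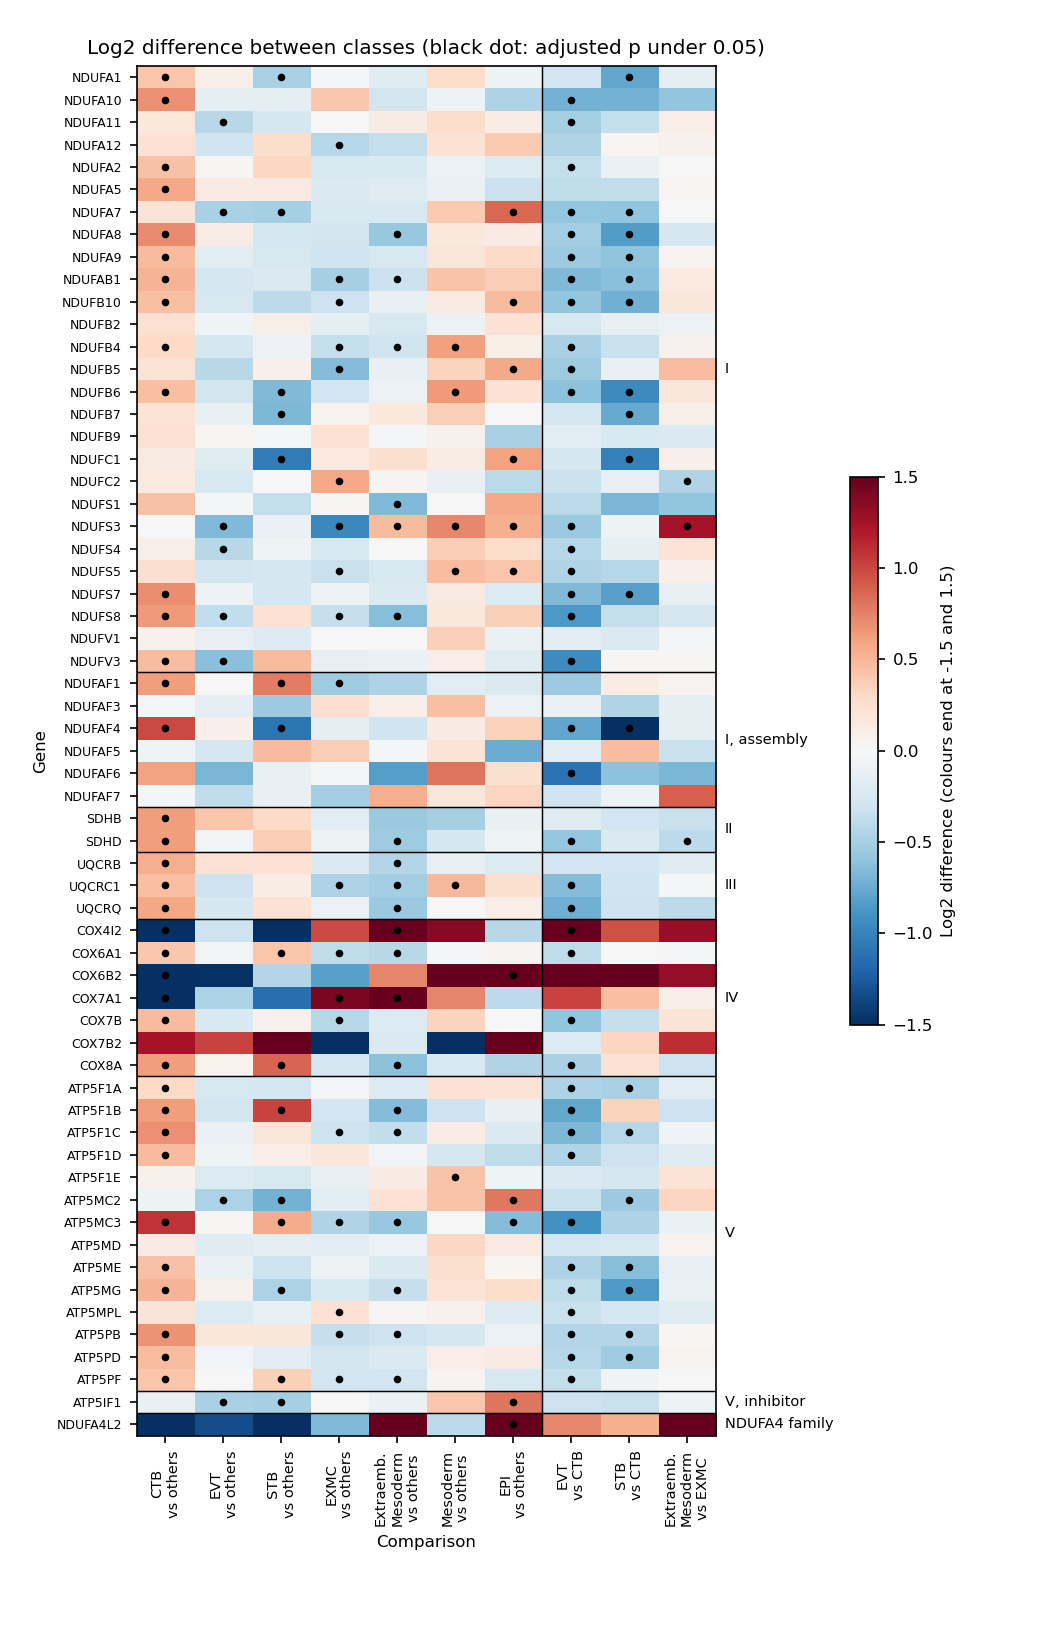
Log2 difference of 61 genes (rows, ordered by complex) in 10 comparisons of classes (columns), with red higher and blue lower, colours ending at 1.5 in either direction and a black dot where the edgeR adjusted p was under 0.05. The CTB column is mostly higher, with 33 dots, and the EVT against CTB column mostly lower, with 36, while COX4I2, COX7A1 and COX6B2 run the other way in CTB.

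In CTB the isoforms COX4I2, COX7A1 and COX6B2 were lower where COX6A1, COX7B and COX8A were higher. The common partners COX4I1, COX7A2, COX6B1 and NDUFA4 had no row in the table. The balance of COX4I2, COX7A1, COX6B2 and NDUFA4L2 with these partners could therefore not be seen. COX4I2 had its lowest median in CTB, at 0.206, 1.75 and 15.7 CPM in the lowest, median and highest of 8 embryos. In STB it was at 0.400 CPM in E16-2, 7.36 in E20, 1.39 in E23 and 6.20 in E25. It was at 2.51, 9.42 and 77.9 CPM in EVT, 2.59, 15.4 and 135 CPM in EXMC and 14.2, 67.4 and 217 CPM in Extraembryonic Mesoderm. The classes overlapped, with E25 the highest embryo in CTB, EVT, EXMC and Extraembryonic Mesoderm. Mesoderm had 95.6, 19.2 and 31.9 CPM, EPI 8.35, 32.3 and 12.8 CPM, Non-neural ectoderm 76.2 and 155 CPM, and PS and derivative 2.26 and 3.36 CPM. COX4I2 was lower in CTB (log2 -2.62 ± 0.55, adjusted p = 0.000816) and higher in Extraembryonic Mesoderm (2.51 ± 0.43, adjusted p = 7.07e-05).

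COX7A1 was at 0.142, 12 and 52.7 CPM in the lowest, median and highest CTB embryo and 8.90, 79.1 and 97.7 CPM in EXMC. It was at 15.2, 76.1 and 104 CPM in Extraembryonic Mesoderm, and 114 and 78.5 CPM in Endoderm. It was lower in CTB by 1.66 (SE 0.33, adjusted p = 0.00041) and higher in Extraembryonic Mesoderm by 1.51 (SE 0.30, adjusted p = 0.000459). E20 was the lowest embryo of COX7A1 in each of the 5 classes.

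The remaining isoforms were rare. COX6B2 was at 25.8 CPM in E18, 4.62 in E21 and 6.22 in E25 in EPI, 11.6 CPM in Neural ectoderm, 5.88 and 9.87 CPM in PS and derivative, and no more than 0.738 CPM in CTB and 2.42 CPM in EXMC. Its fitted difference in EPI was 4.15 ± 1.36 (adjusted p = 0.0311), and 1.48 and not called without E18. NDUFA4L2, known as a gene induced at low oxygen, was at 0 CPM in E18, 33.9 in E21 and 52.3 in E25 in EPI, and at 248 CPM in Endoderm of E18 against 8.66 CPM in Endoderm of E21. It was at most 1.23 CPM in CTB. The fitted difference of NDUFA4L2 in EPI was 4.16 ± 1.20 (adjusted p = 0.0146), which did not pass without E21 (2.02) or E25 (4.65). Fitted differences of genes with such low levels depend on the prior count. COX7B2 reached 46.5 CPM in CTB of E21, where the other 7 CTB embryos were at 4.86 CPM or less, and COX6A2 reached 6.21 CPM in EPI of E18.

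**Figure D5:**
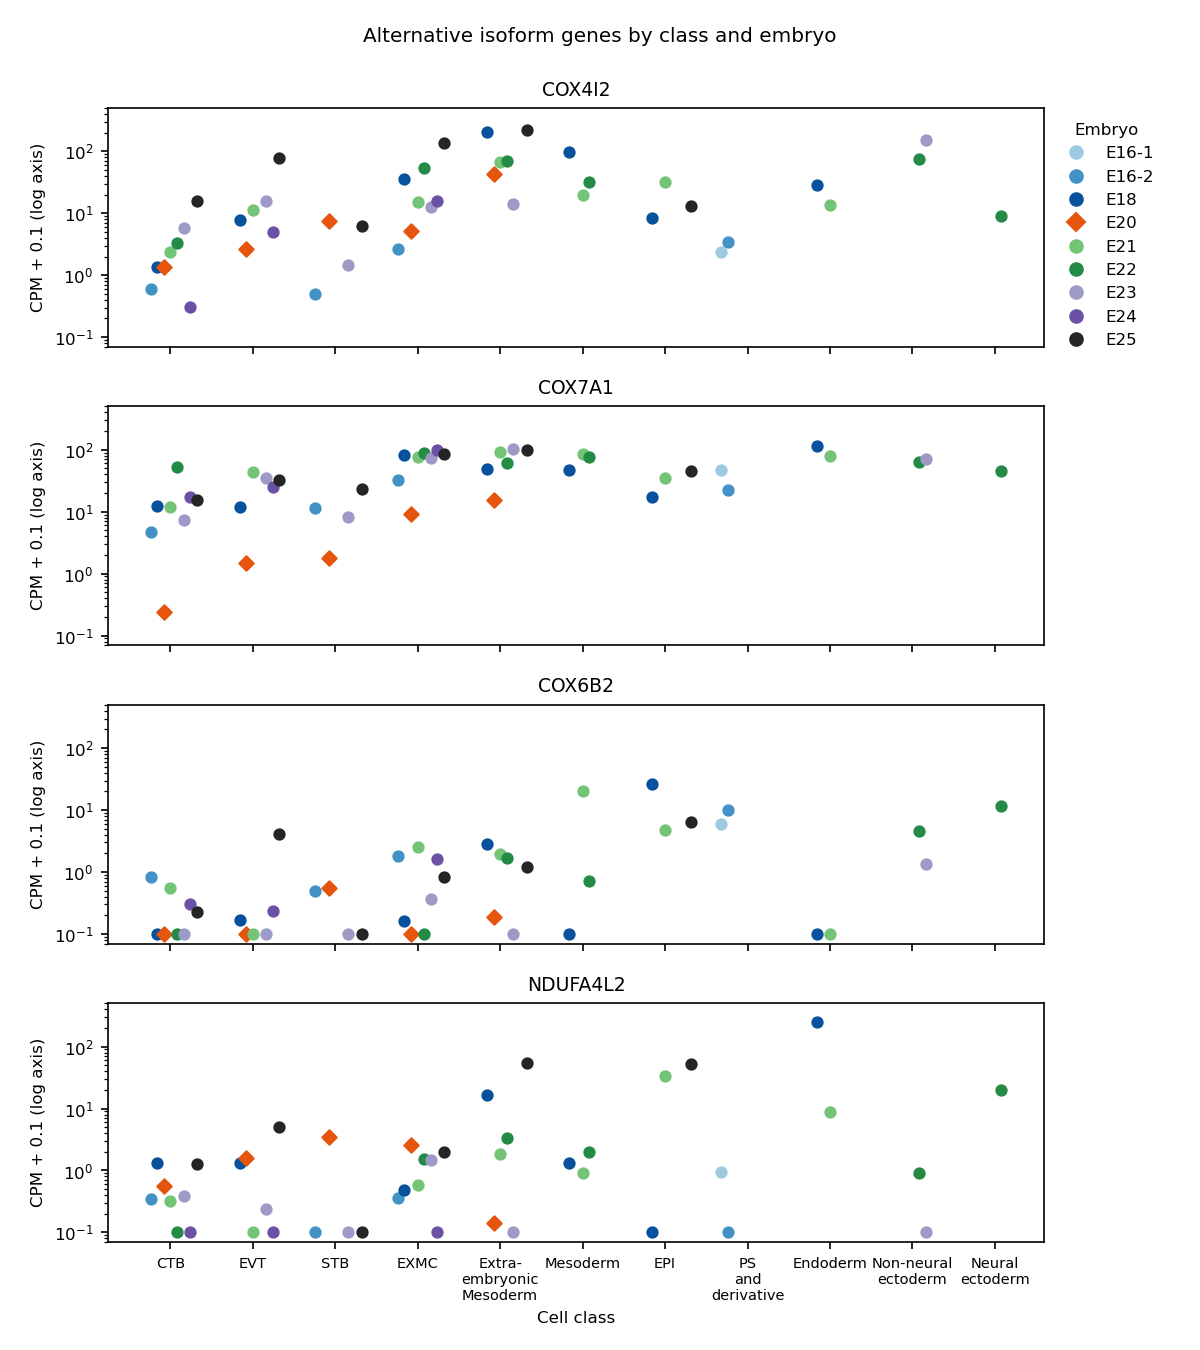
Level of COX4I2, COX7A1, COX6B2 and NDUFA4L2 (CPM plus 0.1, log axis) in each class, with a point per embryo. COX4I2 runs from a median of 1.75 CPM in CTB to 67.4 CPM in Extraembryonic Mesoderm, while COX6B2 and NDUFA4L2 stay at or below 1.23 CPM in every CTB embryo.

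No gene of the set passed for a trend with day. Slopes were fitted over embryos in all cells (9 embryos, 61 genes tested) and within CTB (8 embryos, 59 genes), EVT (6 embryos, 60 genes), EXMC (8 embryos, 61 genes) and Extraembryonic Mesoderm (6 embryos, 60 genes). With the edgeR quasi-likelihood test 0 genes of the set had an adjusted p under 0.05 in any of these fits, and DESeq2 also called 0. Without E20 the number was again 0 in each fit. Of all genes tested, 0.0% passed in the fits of all cells, CTB, EVT and EXMC and 0.0161% in Extraembryonic Mesoderm. At an unadjusted p under 0.05 the set had 1 gene in all cells, 3 in CTB, 2 in EVT, 1 in EXMC and 0 in Extraembryonic Mesoderm (9.74%, 6.7%, 6.41%, 3.13% and 7.24% of all genes). On simulated counts the CTB fit recovered 47% of genes that changed 4-fold over the whole range of days and 1% of those that changed 2-fold. The simulated counts had the same spread for every gene and no shift of a single embryo such as that of E20. What the real embryos could detect was therefore not measured, and smaller slopes may have been missed.

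COX4I2 had the smallest p of the set in 4 of these 5 fits. Its slope was 0.47 ± 0.16 log2 per day in CTB (unadjusted p = 0.0101, adjusted p = 0.63), 0.44 in EVT (adjusted p = 0.723), 0.35 in EXMC (adjusted p = 1.0) and 0.30 over all cells (adjusted p = 0.467). Its level over all cells was 6.75 and 2.89 CPM in the E16 embryos, 37.2 in E18, 8.92 in E20, 24.8 in E21, 46.7 in E22, 26.8 in E23, 7.59 in E24 and 91.4 in E25. The values showed no steady order, E25 being the highest and E24 nearly as low as E16-1. Without E25 the slopes of COX4I2 were 0.30 in CTB, 0.09 in EVT, 0.13 in EXMC and 0.18 over all cells. In CTB, NDUFS3 had a slope of -0.12 (adjusted p = 0.648) and SDHB of -0.10 (adjusted p = 0.719), and in EVT NDUFAF6 had -0.24 (adjusted p = 0.723).

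Other genes of the pathway were counted from lists, which were not refitted without E20. Of all genes tested, 14.2% were higher and 13% lower in CTB, 11.4% and 5.24% in EVT against CTB, and 10.8% and 8.73% in STB against CTB. In these lists, single calls such as 1 of 11 or 1 of 12 genes are near those shares. The 13 subunits encoded in mitochondrial DNA were higher in CTB in 13 of 13 cases (median log2 difference 0.74), among them CYTB of complex III at 1.08 and COX3 of complex IV at 0.95. In EVT against CTB and in STB against CTB, 0 of these 13 were called by edgeR, and 0 had an unadjusted p under 0.05 (medians -0.19 and -0.15), in the fits in which 36 and 18 nuclear genes fell. Their summed share was still lower in EVT than in CTB in 5 of 6 shared embryos (means 9.04% and 10.9%). In STB it was lower in 3 of 4 (9.0% and 10.8%). Against the mean of other classes the 13 genes were higher in EVT (7 of 13) and STB (4 of 13) and lower in Extraembryonic Mesoderm (8 of 13) and EPI (7 of 13). Their mean share of counts was 11.1% in CTB, 9.04% in EVT, 9.0% in STB, 7.15% in EXMC, 6.5% in Mesoderm, 5.34% in Extraembryonic Mesoderm and 4.61% in EPI.

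Of 31 tested assembly factors outside the name rule, 10 were higher in CTB, including BCS1L for complex III and SDHAF4 for complex II. In EVT against CTB 6 fell, COX10 and BCS1L most, and in STB 6 fell and 1 rose. Of 12 carriers and exchange proteins 5 were higher in CTB, including cytochrome c (CYCS, log2 0.96), and 5 fell in EVT and 6 in STB. Of 14 genes of the citric acid cycle and pyruvate dehydrogenase 8 were higher in CTB (DLD 0.99), 6 fell in EVT, and in STB 3 fell while OGDH (1.57) and SUCLA2 (1.17) rose. Of 64 mitochondrial ribosomal protein genes, which serve the mitochondrially encoded subunits, 49 were higher in CTB (median 0.61), 39 fell in EVT (-0.57), and in STB 32 fell and 1 rose (-0.61). Of 12 regulators of mitochondrial biogenesis 4 were higher in CTB, 2 fell in EVT (TFAM and TFB1M), and in STB 1 rose (ESRRG) and 1 fell (TFB1M).

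Lists for other functions were counted in the same way. Of 11 glycolysis genes PFKM was lower in CTB, HK2 rose in EVT, and in STB SLC2A1 rose and ENO1 fell. Of 12 hypoxia response genes 1 was higher and 4 lower in CTB (VEGFA -1.49), 3 rose in EVT (VEGFA 2.16) and 5 rose in STB (ADM 2.61). Of 52 cytosolic ribosomal protein genes 5 were higher and 1 lower in CTB, and 8 fell in EVT and 19 in STB, where the medians were -0.26 and -0.34. In EPI 30 of these 52 were higher. Whether any of these lists bears on the levels of the respiratory chain genes was not tested.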

How the data were processed

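The unit of the deposited table is raw counts per gene and cell, which the authors made with cutadapt 1.15, STAR 2.6.0a and HTSeq 0.10.0, per the submitters' processing notes. The genome build, the treatment of reads that match several places (processed pseudogenes of these genes are common in primates) and of doublets, and whether a count is a read or a molecule are not stated by these sources. Doublets were not called. Each of the 3682 column sums equals the total count in the authors' deposited annotation, which also gives class and embryo. Libraries share 0 cell names. In 2 libraries (149 cells) title and time label disagree, and they entered no comparison.

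Counts were summed per embryo and class (at least 10 cells, at least 3 embryos per class) and fitted with the edgeR 4.0.16 quasi-likelihood test in R 4.3.3 (filterByExpr, TMM), with the embryo as a block, each class against the mean of the others plus 3 pairs of classes. Benjamini-Hochberg adjustment ran over all genes and comparisons, with a threshold of 0.05. The block follows the authors' embryo names, since classes of an embryo share the animal. Day slopes used classes with at least 5 embryos over at least 4 days. CPM are counts over the summed total without TMM and are not per gene length, so levels of different genes were not ranked. On simulated counts, with the same spread for every gene and no embryo shifts, the STB comparison recovered 34% of 2-fold and 100% of 4-fold changes.

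Named were SDHB, SDHD, the isoforms and ATP5IF1, and in each comparison the 3 called genes with the largest rise and fall among those of at least 10 CPM (in trends without calls, the smallest p). Names outside that rule, such as ATP5ME and UQCRC1, were chosen after their values were seen. The lists were mitochondrially encoded subunits, assembly factors, carriers, citric acid cycle, regulators, glycolysis, hypoxia response, ribosomal proteins of both kinds, and class markers. The set and these lists were chosen with earlier results of these data known. Symbols matched the T2T-MFA8v1.1 gene table for 60 of 62 genes. Alternatives were DESeq2 (1.42.0) size factors and Wald test, no low-count filter, at least 20 cells, sums per library, no block, and leaving out each embryo.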

Additional observations from a re-analysis of the deposited data

Results flagged for a closer look

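In 37 of the 120 groups examined (shares by complex and levels of named genes, per class with 4 to 8 embryos), 1 embryo lay far from the others by Dixon's test. Chance alone gives about 1 in 20 groups, and genes and complexes of the same embryo are not independent.

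Most of these were E20. Its share of counts was low for complex I in CTB (0.629%), for complex IV in CTB (0.0877%), EXMC (0.0484%), Extraembryonic Mesoderm (0.0514%) and STB (0.0777%), and for all 62 genes in Extraembryonic Mesoderm (1.02%). It was high for complex II in CTB (0.0695%) and EXMC (0.0381%). Among genes, E20 was low for COX6A1 in EXMC (186 CPM) and Extraembryonic Mesoderm (203), for COX7B in CTB (297), EVT (223), EXMC (155) and Extraembryonic Mesoderm (144), for ATP5IF1 in CTB (109), and for NDUFC1 in CTB (94.3) and Extraembryonic Mesoderm (70.9). It was high for SDHD in CTB (504 CPM), EVT (353) and EXMC (266), for NDUFS3 in EXMC (99.4), for ATP5F1B in CTB (73.7) and EVT (45.2), and for NDUFA4L2 in STB (3.4).

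Rare isoforms gave the others. COX4I2 was high in E25 in CTB (15.7 CPM), EVT (77.9) and EXMC (135). NDUFA4L2 was high in E25 in EVT (4.87) and Extraembryonic Mesoderm (55.0), and COX6B2 in EVT of E25 (3.97). COX7B2 was high in CTB of E21 (46.5), and in Extraembryonic Mesoderm (11.1) and STB (19) of E25. COX7A1 was high in CTB of E22 (52.7). COX6A2 was highest in E18 in CTB (0.176) and EVT (0.0708) and in E21 in EXMC (0.150), each near 0.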

How the results depend on the processing

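Of the alternatives for counts of called genes, 167 stayed within 1.5 times the reported count and 41 did not. Of those for single named genes, 1930 kept direction and call, 36 gained the call, 111 lost it (32 of them without the block) and 2 reversed. A further 98 changes of sign were between values that were not called. The reversals were NDUFA4L2 in EPI with at least 20 cells per sum (-8.17) and the uncalled day slope of NDUFC2 over all cells in library sums with the library code (-0.19). The cause of these changes was not tested.

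No replicate block (class alone, no pairing by embryo) gave 15 called genes in CTB (36 with it), 3 in EPI (11), 1 in EVT (8), 6 in EXMC (19), 4 in Extraembryonic Mesoderm (20), 1 in Mesoderm (6), 5 in STB (15), 9 in EVT against CTB (37) and 4 in STB against CTB (18). At least 20 cells per sum gave 6 in EPI. The DESeq2 Wald test gave 18 in EVT and 5 in Extraembryonic Mesoderm against EXMC, and DESeq2 size factors 16 and 5, with the median of all genes in EPI moving from -0.07 to 0.03. Library sums with a library block gave 16 in EVT, 11 in Extraembryonic Mesoderm against EXMC, 10 in Mesoderm and 6 in STB against CTB, and no value for EPI, which had too few library sums.

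For day slopes, where 0 were called, library sums gave 3 in CTB, 4 in EVT, 1 in EXMC and 2 over all cells, and with the library code 1 in CTB, 8 in EXMC and 11 over all cells. These sums count libraries of 1 embryo as independent.

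Leaving out each embryo in turn gave 35 to 38 called genes in CTB, 5 to 13 in EPI, 3 to 13 in EVT, 10 to 23 in EXMC, 14 to 25 in Extraembryonic Mesoderm, 2 to 7 in Mesoderm, 8 to 16 in STB, 22 to 41 in EVT against CTB, 10 to 26 in STB against CTB and 1 to 5 in Extraembryonic Mesoderm against EXMC, and 0 in every day slope. The counts moved by over 1.5 times without E18, E20 or E21 in EPI (5, 7 and 6), E24 in EVT against CTB (22), E18 or E25 in EVT (3 and 13), E21 in EXMC (10), E18, E21 or E22 in Mesoderm (2, 2 and 3), E20 in STB (8) and E25 in STB against CTB (10), and without E20, E21 or E24 (1 each) or E22 (5) in Extraembryonic Mesoderm against EXMC.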

Other observations

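The 2 libraries whose labels name different days held 55 and 94 cells. Their share of counts from the 62 genes was 1.95% and 1.83%, within the range of the 42 other libraries (1.23% to 2.69%, median 2.11%).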
